A study of Oryza sativa with 4 samples.

Results

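The YABBY genes of rice (Oryza sativa) were followed as 8 loci, DROOPING LEAF (DL) and OsYABBY1 to OsYABBY7, among the 55986 loci of the expression table. They were taken from the table by locus name. The study asked which genes OsGRF6 regulates, a growth-regulating factor of the class that the microRNA miR396 targets, and made 4 libraries, 1 for each group. A MIM396 RNA library came from panicles of plants with p35S:MIM396, a decoy target that sequesters miR396 driven by the strong constitutive 35S promoter. A WT RNA library came from panicles of the wild type Yutai B, and both panicle samples were labelled as at the stage of secondary branch development. Callus (undifferentiated tissue in culture) of p35S:GRF6-GFP transgenic lines gave an OsGRF6-GFP ChIP library, made with anti-GFP, and a ChIP input library, so the binding data come from another tissue and from a factor under a constitutive promoter. The sources used here do not say how many plants or lines went into a library.

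YABBY proteins are plant transcription factors with a zinc finger and a helix-loop-helix-like DNA-binding YABBY domain. In Arabidopsis they are known for lateral organs, where FILAMENTOUS FLOWER (FIL) marks the lower side of leaves and CRABS CLAW (CRC) shapes the carpel. In rice, DL, the CRC-type member, specifies the carpel and the leaf midrib. OsYABBY3, OsYABBY4 and OsYABBY5 are the FIL-type genes, and OsYABBY5 is TONGARI-BOUSHI1 (TOB1), which is known for spikelet meristem and lemma development. OsYABBY1, OsYABBY2 and OsYABBY6 are grouped with Arabidopsis YAB2, and OsYABBY7 with INNER NO OUTER (INO), which acts in the outer layer of the ovule. All 8 names were found in the RefSeq gene table of assembly ASM3414082v1, each on the same chromosome as its locus here. That table also gives the short names OsYAB3, OsYAB4, OsYAB5 and OsYAB7 to OsYABBY5, OsYABBY3, OsYABBY6 and OsYABBY4, so only the OsYABBY numbers are used.

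The RNA libraries held 13125592 reads (MIM396) and 16337526 reads (WT), recovered from the authors' scaled counts. The marker content of the library labelled WT stood apart from its tissue label. Of 18 green leaf markers (photosynthesis genes), all 18 were lower in MIM396, with a summed level of 118.2 FPKM (single genes 0.134 to 47.6) in MIM396 and 116483 FPKM (903.7 to 17544) in WT. Of 20 panicle and young flower markers, all 20 had reads in MIM396 and 10 had 0 reads in WT. Some of these counts were low in MIM396 too: LOC_Os05g11414 had 1 read there and LOC_Os06g45460 had 2, both with 0 in WT. Under 1 FPKM lay 4 of the 20 in MIM396 and 14 in WT. The 20 markers summed to 458.3 FPKM in MIM396 and 261.2 FPKM in WT. In WT, 1 locus, LOC_Os01g40630, gave 130.5 FPKM and another, LOC_Os03g54160, 110.8 FPKM. The loci named here were singled out after their values were seen. Anther and pollen markers summed to 2.77 FPKM in MIM396 and 3.50 FPKM in WT over 5 loci. With 1 library per group, genotype and the tissue content of the library cannot be told apart in any difference below. A difference describes these libraries and has no replicate error, and every interval is a 95% interval of counting error only.

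The YABBY genes did not all differ alike between the libraries. The FIL-type genes OsYABBY3, OsYABBY4 and OsYABBY5 and the carpel gene DL were higher in the MIM396 library, the YAB2-type genes OsYABBY2 and OsYABBY6 had nearly equal levels, OsYABBY1 lay between, and OsYABBY7 was close to absent from both. Expression is given as FPKM, the authors' measure of fragments per locus length, on the authors' own scaling of the libraries. That scaling did not bring the libraries to equal size, and FPKM over all loci summed to 506480 in MIM396 and 849095 in WT. A locus was called higher or lower when log2 of (MIM396 FPKM + 1)/(WT FPKM + 1) was at least 1 in either direction and the mean was at least 1 FPKM. Of the 8 genes, 7 reached that mean, and 4 of these were higher, 0 lower and 3 neither. Among the 19456 loci that reached it, 23.1% were higher and 27.3% lower. DL, OsYABBY3, OsYABBY4 and OsYABBY5 passed the mean only through the MIM396 library, so neither their count nor the median of the 7 genes supports anything by itself. That median log2 ratio was 1.84, the value of DL, against -0.000385 over all loci that reached the mean. With no floor the median was 1.35 over all 8 genes and 0 over all 55986 loci. In bulk tissue, fewer cells of a type and less RNA per cell cannot be told apart.

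**Figure D1:**
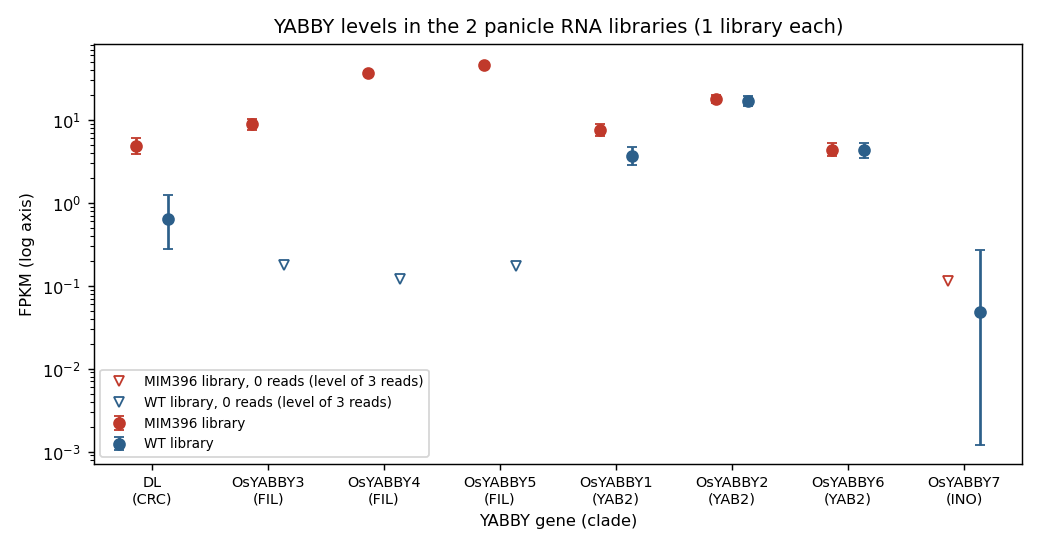
FPKM of the 8 YABBY genes on a log axis, MIM396 library in red left of the WT library in blue, with exact Poisson 95% intervals of the reads. Open triangles mark 0 reads and stand at the level of 3 reads. The FIL-type genes reach 8.85 to 45.5 FPKM in MIM396 and have 0 reads in WT, while OsYABBY2 and OsYABBY6 overlap between the libraries.

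OsYABBY5 (TOB1, LOC_Os04g45330, chromosome 4, 26797649 to 26800253) had 990 reads and 45.5 FPKM in the MIM396 library, against 0 reads and 0 FPKM in the WT library. At the MIM396 level on the authors' scale, 790.5 reads would have been counted in the WT library. Set against 3 reads, the limit that a count of 0 allows in 1 library, OsYABBY5 was at least 263.5-fold higher in MIM396 on the scale of the authors' scaled reads. It was the most abundant gene of the family there, above 91.6% of all loci with reads in that library.

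OsYABBY4 (LOC_Os02g42950, chromosome 2, 25839310 to 25842729) had 1130 reads and 36.4 FPKM in MIM396, against 0 reads in WT. It was at least 300.8-fold higher, by the same limit of 3 reads. OsYABBY3 (LOC_Os10g36420, chromosome 10, 19471067 to 19475406) had 189 reads and 8.85 FPKM in MIM396, against 0 reads in WT, and was at least 50.3-fold higher. All 3 FIL-type genes had reads in the MIM396 library and none in WT. Their levels within that library were unequal, with OsYABBY5 at 1.25 times OsYABBY4 and 5.15 times OsYABBY3 in FPKM. Such a pattern was not particular to these genes. The read limit used next is the count of OsYABBY3 itself, so the shares describe and test nothing. At 152 loci, 0.781% of those that reached the mean, the WT library had 0 reads and the MIM396 library at least as many as OsYABBY3, and at 181 loci, 0.93%, the libraries stood the other way round. On the log2(FPKM + 1) scale the differences were 5.54 for OsYABBY5, 5.23 for OsYABBY4 and 3.30 for OsYABBY3. Counted over all loci with that mean, 91, 127 and 695 loci, each gene included, had a log2 difference at least as large.

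DL (LOC_Os03g11600, chromosome 3, 6041244 to 6048687) had 76 reads and 4.86 FPKM (3.83 to 6.08) in MIM396, against 8 reads and 0.635 FPKM (0.274 to 1.25) in WT. The counting intervals of the libraries did not overlap, and DL was 7.59-fold higher in scaled reads (3.66 to 18.2, exact conditional binomial). Its log2 difference was 1.84, a size reached or passed by 2303 loci, 11.8% of those that reached the mean. DL thus had reads in both libraries, at a level above 48.9% of the loci with reads in MIM396 and above 22.4% in WT. The 3 loci with levels nearest to those of DL over these 2 libraries, by Euclidean distance in log2(FPKM + 1), were LOC_Os01g11260 (0.0271), LOC_Os11g09670 (0.0345) and LOC_Os06g45050 (0.0401). With 2 libraries this likeness is weak, and 72 loci lay within 0.25 of DL.

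Among the YAB2-type genes, OsYABBY2 (LOC_Os03g44710, chromosome 3, 25197056 to 25206961) had 326 reads and 18.1 FPKM (16.2 to 20.2) in MIM396, and 242 reads and 16.9 FPKM (14.9 to 19.2) in WT. The ratio of scaled reads was 1.08 (0.908 to 1.28), an interval that holds equal levels. OsYABBY6 (LOC_Os12g42610, chromosome 12, 26477632 to 26487388) had 120 reads and 4.39 FPKM (3.64 to 5.25) in MIM396, and 95 reads and 4.32 FPKM (3.50 to 5.28) in WT, a ratio of 1.01 (0.764 to 1.33). Counting error alone therefore leaves room for a modest difference of either gene in either direction. OsYABBY1 (LOC_Os07g06620, chromosome 7, 3221591 to 3229297), which in rice is known to affect stamen and carpel number and to take part in gibberellin feedback, had 164 reads and 7.60 FPKM (6.48 to 8.85) in MIM396, and 66 reads and 3.71 FPKM (2.87 to 4.72) in WT. Its levels did not overlap within counting error, at 1.98-fold in scaled reads (1.48 to 2.68), and its log2 difference of 0.87 fell short of the size limit.

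The equal levels of OsYABBY2 and OsYABBY6 were kept under some library scalings and not under others. With TMM factors (a trimmed mean of log ratios), the log2 differences were 0.098 for OsYABBY2 and 0.023 for OsYABBY6. Under the authors' scaling the libraries kept unequal totals. When all reads were brought to equal totals, the median of all loci moved to 0.60, and the log2 differences were 1.45 for OsYABBY1, 0.70 for OsYABBY2 and 0.56 for OsYABBY6. OsYABBY2 and OsYABBY6 thus stayed near the median of all loci, and OsYABBY1 passed the size limit. The FIL-type genes and DL were higher under each of the 4 scalings tried.

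**Figure D2:**
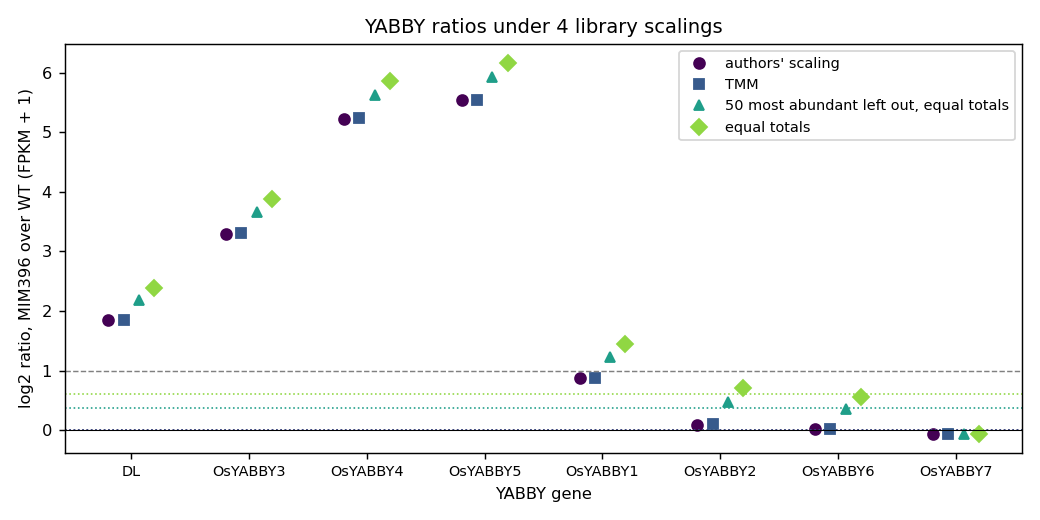
Log2 ratio of MIM396 over WT, from FPKM + 1, for each YABBY gene under 4 library scalings, with the median of all loci under each as a dotted line and the 2-fold limit as a dashed line. DL and the FIL-type genes lie above the limit under all 4, OsYABBY2 and OsYABBY6 lie below it under all 4, and OsYABBY1 crosses it.

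OsYABBY7 (LOC_Os07g38410, chromosome 7, 23086433 to 23090921), the INO-type gene, had 0 reads in MIM396 and 1 read (0.0480 FPKM) in WT, both under the limit of 3 reads, so no ratio is given. A level above 0.115 FPKM in MIM396 and 0.144 FPKM in WT would have reached 3 reads. The expression table gives LOC_Os07g38420 the same interval as OsYABBY7, and that locus had 37.3 FPKM in MIM396 and 21.97 FPKM in WT. The sources used here do not say how reads were divided between loci that share an interval, and the near absence of OsYABBY7 is uncertain for that reason. None of the other 7 genes overlapped another locus.

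The order of the genes by level differed between the libraries. In MIM396 the order by FPKM was OsYABBY5, OsYABBY4, OsYABBY2, OsYABBY3, OsYABBY1, DL, OsYABBY6 and OsYABBY7. In that order, OsYABBY3 (7.63 to 10.2) and OsYABBY1 (6.48 to 8.85) did not differ beyond counting error, and neither did DL (3.83 to 6.08) and OsYABBY6 (3.64 to 5.25). In WT the order was OsYABBY2, OsYABBY6, OsYABBY1, DL and OsYABBY7, followed by the FIL-type genes at 0 reads. There, OsYABBY6 (3.50 to 5.28) and OsYABBY1 (2.87 to 4.72) overlapped, as did OsYABBY7 and the FIL-type genes. OsYABBY2 exceeded OsYABBY6 by a like factor in both libraries, 4.13 in MIM396 and 3.92 in WT, whereas it exceeded DL by 3.73 in MIM396 and by 26.7 in WT.

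The share of each gene in the family can be compared with no scaling between libraries. Summed levels and the ratio of the YAB2-type genes between libraries do depend on the authors' scaling. The 8 genes summed to 125.8 FPKM in MIM396 and 25.6 FPKM in WT. FIL-type genes gave 72.2% of that sum in MIM396 and 0% in WT. YAB2-type genes gave 23.9% in MIM396 and 97.3% in WT, and DL gave 3.86% in MIM396 and 2.48% in WT. In reads, the FIL-type genes held 2309 of 2995 family reads in MIM396, a share of 77.1% (75.5 to 78.6%, Clopper-Pearson), and 0 of 412 in WT, which allows a share of up to 0.728% by the limit of 3 reads and 0.891% by the Clopper-Pearson upper bound. The share of DL in family reads was 2.54% (2.004 to 3.17%) in MIM396 and 1.94% (0.842 to 3.79%) in WT, so its part within the family overlapped between the libraries although its own level did not. The 3 YAB2-type genes together had 30.1 FPKM in MIM396 and 24.97 FPKM in WT, a ratio of 1.21 in scaled reads (1.06 to 1.37).

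**Figure D3:**
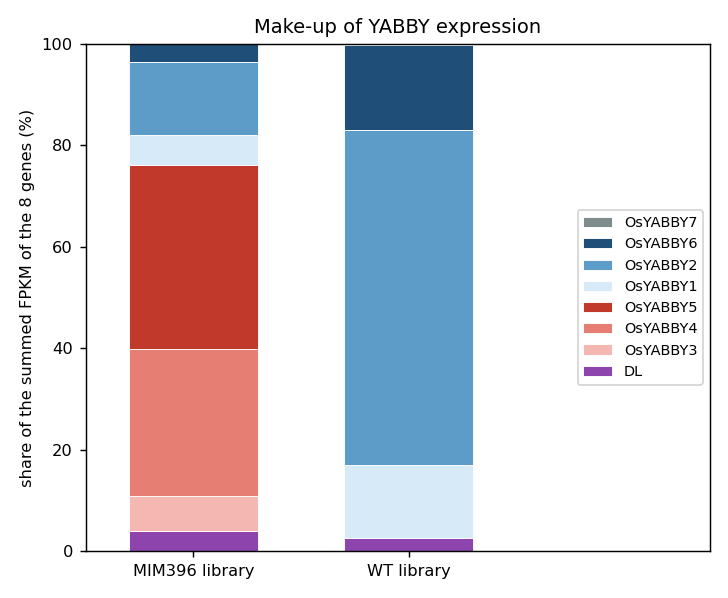
Share of each gene in the summed FPKM of the 8 YABBY genes, MIM396 library left and WT library right. FIL-type genes (red) fill 72.2% of the MIM396 bar and 0% of the WT bar, and YAB2-type genes (blue) fill 23.9% of the MIM396 bar and 97.3% of the WT bar.

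**Figure D4:**
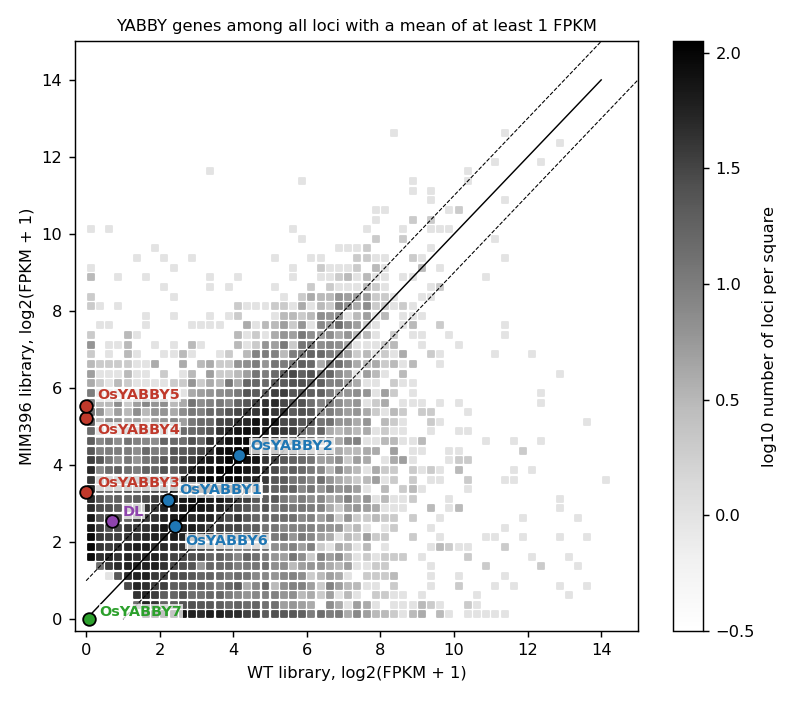
Log2(FPKM + 1) of all loci that average 1 FPKM or more, WT library on the horizontal and MIM396 library on the vertical axis, shaded by the number of loci per square, with the YABBY genes as points and dashed lines at 2-fold. OsYABBY3, OsYABBY4 and OsYABBY5 lie on the vertical axis at 0 in WT, and OsYABBY2 and OsYABBY6 lie on the diagonal.

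In the authors' deposited table, the FDR (an adjusted p-value, whose test the sources used here do not name) was under 0.05 for 0 of the 8 YABBY genes and for 4.95% of all 55986 loci. Only 24527 loci had reads in MIM396 and 24720 in WT. That share thus has another base than the YABBY genes, 7 of which reached a mean of 1 FPKM. The authors' deposited table gave 0.0763 for OsYABBY5, 0.0955 for OsYABBY3 and 0.142 for OsYABBY4, all with 0 reads in WT. The authors' deposited table gave 0.273 for DL, 0.734 for OsYABBY1, 0.965 for OsYABBY2, 0.990 for OsYABBY6 and 0.477 for OsYABBY7.

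Loci next to the YABBY genes were taken from the order of the expression table. Within 10 kb, 12 neighbouring loci were listed on either side of the 8 genes. Of these, 6 had no read in either library and 5 reached a mean of 1 FPKM, with 2 higher in MIM396 and 1 lower. Over all loci that reached it, 23.1% were higher and 27.3% lower, and counts among 5 loci support nothing by themselves. The locus that follows DL, LOC_Os03g11614 (chromosome 3, 6052749 to 6061369), starts 4062 bp beyond DL. The gene next to DL in RefSeq is OsMADS1, a SEPALLATA-like MADS-box factor of floret and lemma identity. LOC_Os03g11614 had 189 reads and 8.99 FPKM in MIM396, against 4 reads and 0.236 FPKM in WT, 37.7-fold higher in scaled reads (14.5 to 139.9). Both adjoining genes were thus low in WT and higher in MIM396. The left neighbour of OsYABBY4, LOC_Os02g42940, was 2.50-fold higher (2.07 to 3.03), with 18.8 FPKM in MIM396 and 7.48 FPKM in WT, far less than OsYABBY4 itself. On the left of OsYABBY5, LOC_Os04g45320 had no read, and on its right LOC_Os04g45340 had 21 reads in MIM396 and 0 in WT. The lower neighbour was LOC_Os07g38400, left of OsYABBY7, with 4.12 FPKM in MIM396 and 17.7 FPKM in WT, 0.231-fold (0.189 to 0.281). To the right of OsYABBY7, LOC_Os07g38430 was 0.774-fold (0.670 to 0.894), within the size limit. LOC_Os07g06610, left of OsYABBY1, was 2.53-fold higher in scaled reads (1.93 to 3.37), with a log2 difference of 0.967 that fell short of the limit.

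Gene lists drawn up around the YABBY family differed in direction. Their locus identities rest on general knowledge, and the sources used here name only a few of them. Of 10 flower genes known to act with DL, 8 reached a mean of 1 FPKM, and 6 of these were higher in MIM396 and 2 lower, with a median log2 ratio of 2.31, where 23.1% of all loci were higher and 27.3% lower. Of the 6, 4 lay under 1 FPKM in WT and passed the mean only through MIM396, and 1 of the 2 lower loci passed it only through WT. LOC_Os03g51690 had 134.2 FPKM in MIM396 and 0 reads in WT, and LOC_Os06g49840 had 44.6 FPKM in MIM396 and 8.03 FPKM in WT. LOC_Os02g45770 had 6.17 FPKM in MIM396 and 0 reads in WT. The 2 lower loci were LOC_Os01g10504, with 0.214 FPKM in MIM396 and 4.62 FPKM in WT, and LOC_Os06g50340, with 1.23 FPKM in MIM396 and 6.50 FPKM in WT. The list is not independent of the panicle markers, with which it shares 8 loci.

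Of 10 leaf polarity and blade genes, 7 reached a mean of 1 FPKM, with 5 higher in MIM396, 0 lower and 2 neither, and a median of 2.26. The highest was LOC_Os03g43930, with 184.0 FPKM in MIM396 and 9.56 FPKM in WT. LOC_Os12g41860 had 73.9 FPKM in MIM396 and 4.10 FPKM in WT, and LOC_Os03g01890 had 82.4 FPKM in MIM396 and 11.9 FPKM in WT. LOC_Os10g33960, which the peak table describes as similar to Rolled leaf1, had 54.1 FPKM in MIM396 and 10.5 FPKM in WT. Genes on this list thus leaned the way of the FIL-type YABBY genes and of the panicle markers, in a comparison where 23.1% of loci were higher, and 1 of the 5 higher loci passed the mean only through MIM396.

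Of 4 gibberellin genes tied to rice YABBY proteins, 1 was higher in MIM396, 1 lower and 2 neither, with a median of -0.57. LOC_Os05g33730 had 94.1 FPKM in MIM396 and 21.4 FPKM in WT, and LOC_Os01g66100 had 1.37 FPKM in MIM396 and 12.6 FPKM in WT. The panicle markers had 11 loci higher, 2 lower and 1 neither among the 14 that reached a mean of 1 FPKM, beside 23.1% and 27.3% of all loci higher and lower. Of the 11, 8 lay under 1 FPKM in WT and passed that mean only through MIM396, so the count supports nothing by itself. Of the 5 anther and pollen markers, 2 reached that mean, and both were neither higher nor lower. The part of the tissue content of the WT library in the YABBY differences was not tested.

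**Figure D5:**
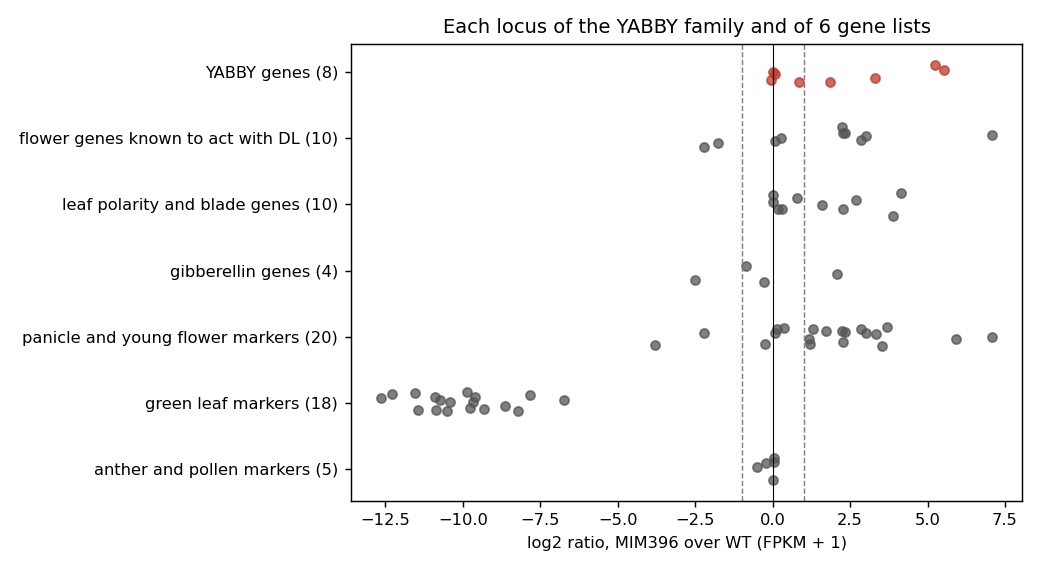
Log2 ratio of MIM396 over WT, from FPKM + 1, for each locus of the YABBY family (red) and of 6 gene lists (grey), with the number of loci in parentheses and dashed lines at 2-fold. All 18 green leaf markers lie far to the left, and the YABBY genes lie between about equal levels and 5.54.

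No YABBY gene was placed at an OsGRF6-GFP peak. The authors' list holds 142 peaks, each placed within 3 kb of a gene model, and 0 of the 8 YABBY loci were among the loci at them, against 175 loci or 0.313% of the table. A count of 0 among 8 loci is close to that background share. The nearest peak to any of them was peak 200 (chromosome 12, 26429632 to 26430731), 46.9 kb from OsYABBY6. For OsYABBY2 the nearest peak lay 190.9 kb away, for OsYABBY3 237.1 kb, for OsYABBY5 408.7 kb, for OsYABBY7 655.2 kb, for OsYABBY4 905.9 kb, for OsYABBY1 1370 kb and for DL 3514 kb. Within 10 kb of a peak lay 0 of the 8 and 0.862% of all loci, and within 50 kb lay 1 of the 8 and 3.66% of all loci. The median distance was 532.0 kb for the YABBY genes and 1018 kb for all loci. The peaks come from 1 ChIP library of callus, and peaks that the list does not hold were not analysed here.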

How the data were processed

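Expression values came from 1 table with 1 RNA library per genotype. The authors' FPKM were used as deposited. The signal columns named as counts are deposited read counts that the authors multiplied by 1 factor per library; dividing by the step of low values (0.844 in MIM396, 1.06 in WT) put 98.6% and 98.2% of positive values within 0.01 of whole reads, and for all 8 YABBY loci. The p-value columns are the authors' deposited FDR. Per the submitters' processing notes, FastQC and Bowtie were used; the counting tool, genome build and strand setting are not named there. With no residual degrees of freedom, no count test was run, so it called no genes. Intervals are exact Poisson, conditional binomial or Clopper-Pearson (scipy 1.17.1), at 95%, and cover counting error only, as reads are not independent molecules. Ratios used a pseudocount of 1 FPKM, which understates differences of low loci. Alternatives were equal totals, equal totals without the 50 most abundant loci of either library, TMM factors (edgeR 4.0.16), a pseudocount of 0.1 FPKM, scaled reads + 1, no floor, a 4-fold limit and other distances to peaks. All 8 genes are named, with the neighbours within 10 kb that reached a mean of 1 FPKM and the neighbours of OsYABBY5. Also named are the 3 loci most like DL, and up to 4 loci of each list around the family by largest ratio. The lower loci of the flower list are named as well. The members and lists were chosen with earlier results of these data known. Protein and promoter sequences were not analysed here.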

Additional observations from a re-analysis of the deposited data

How the results depend on the processing

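The count of YABBY genes higher in MIM396 was 4 as reported, with TMM, with scaled reads + 1 and with no floor. It was 5, with OsYABBY1 added, under equal totals, with the 50 most abundant loci left out and with a pseudocount of 0.1 FPKM, and 3, without DL, at a 4-fold limit. The count lower was 0 under each of these. The median log2 ratio of the genes with a mean of at least 1 FPKM was 1.84, and ran from 1.35 with no floor to 2.78 with scaled reads + 1. The summed FPKM of the family was 4.90 times as high in MIM396 as in WT, 7.64 times under equal totals and 6.48 times with the 50 most abundant loci left out. These scalings moved the share of all loci called higher to 38.0% and 31.7% and the share called lower to 20.4% and 22.5%. Of 40 single log2 ratios under alternatives, 16 were counted as moved and 0 of those called changed sign. For OsYABBY1, OsYABBY2 and OsYABBY6, moved means past the counting interval of the ratio. The other moved ratios belong to the FIL-type genes, whose 0 reads in WT leave no such interval. The ratios of genes with 0 reads in WT depend on what is added: OsYABBY5 ran from 5.54 to 9.71. The number of YABBY genes at peaks was 0, also within 10 kb, and 1 within 50 kb. No paired analysis was possible because each group has 1 library. Low read numbers limit the WT values of the FIL-type genes (0 reads each), OsYABBY7 (1 read) and DL (8 reads).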
